A study of Homo sapiens with 4 samples.

Results

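The genes described here are 36 genes of glycolysis and of the transcriptional response to low oxygen, chosen by symbol as well-known members of both, with earlier results of these data known. All 36 were found among the 61541 genes of the count table. They were measured by RNA-seq in MDA-MB-231, an established human breast cancer line of triple-negative, mesenchymal-like type. The control cells were untreated cells of the line. The cadmium cells were the same line kept through many passages in cadmium sulphate, at a concentration that was raised to 10 µM. Each group had 2 libraries (n = 2). The sources describe a single resistant line, so the effect of cadmium and what was particular to the selection of this line cannot be told apart. The control libraries are called control 2 and control 3, after the numbers in the count table, and the others cadmium 1 and cadmium 2. The oxygen level of the cultures is not given in the sources used here.

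Glycolysis splits glucose into pyruvate in a chain of enzymes, and lactate dehydrogenase and the monocarboxylate transporters then turn the pyruvate into lactate and export it. When oxygen is scarce, the hypoxia-inducible factors HIF1A and EPAS1 are no longer hydroxylated by the EGLN enzymes and marked for destruction by VHL, and with their partner ARNT they bind hypoxia response elements and raise transcription of most of these enzymes and of genes for acid balance, secreted signals and mitophagy. Many cancer cells run glycolysis at a high level even in air. Metals such as cobalt can also stabilise hypoxia-inducible factors. MTF1 responds to metals and can bind metal response elements. The study cites earlier work in which MTF1 activated by cadmium did not use the standard element.

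The libraries held between 51934729 and 61916007 reads assigned to genes, and counts were scaled by DESeq2 size factors between 0.940 and 1.06 to give normalised read counts. Control 2 stood apart: the log2 ratio between the 2 control libraries had a robust SD of 0.56 over genes, against 0.16 between the 2 cadmium libraries. The labels call the controls biological replicates and the cadmium libraries replicates, and do not say whether they came from separate cultures, so p-values measure only the spread between these libraries. The line markers VIM, CD44, AXL, EGFR, KRT8 and KRT18 were high in all 4 libraries. Of 6 markers listed as low or absent in the line, 5 had enough reads to be tested. ESR1 lay between 2.13 and 18.9 normalised counts, while GATA3 at 489 to 991 and ERBB2 at 4584 to 6773 were not low. Of 9 markers of other cells, 5 had enough reads to be tested. CD3E was at 0 in all 4 libraries and DCN reached at most 3.95. COL1A1 lay between 501 and 930 and PECAM1 between 160 and 842. The values of the remaining markers of both lists are not given here. The part of other cells in the results was not tested. In bulk RNA, fewer cells of a type and less RNA per cell cannot be told apart.

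In the comparison of cadmium with control cells, 2 of the 36 genes passed a DESeq2 adjusted p below 0.1. ADM was higher in the cadmium cells and CA12 was lower. Among all 19816 genes tested, 1.14% passed, 0.601% upward and 0.535% downward. None of the 24 genes of glucose entry, glycolysis and lactate handling passed. None had an unadjusted DESeq2 p below 0.05, beside 6.92% of all genes tested. With edgeR and limma-voom 1 did (PFKL), beside 7.83% and 7.4% of all genes. The median log2 fold change of the 36 genes was -0.16, beside -0.02 over all genes tested, with 9 values above 0 and 27 below. All 36 genes were tested, and most had high counts. CA9 was the lowest at 2 to 26 reads a library. SLC16A1 at 74 to 206 reads and ANKRD37 at 109 to 183 were also low beside the rest. The count that passed was 0 with edgeR and with limma-voom, 0 without cadmium 1 or cadmium 2, 5 without control 2 and 21 without control 3, of which 3 were higher and 18 lower. In the same fits, 0.114% of all genes tested passed without cadmium 1, 0.107% without cadmium 2, 14.8% without control 2 and 31.2% without control 3.

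**Figure D1:**
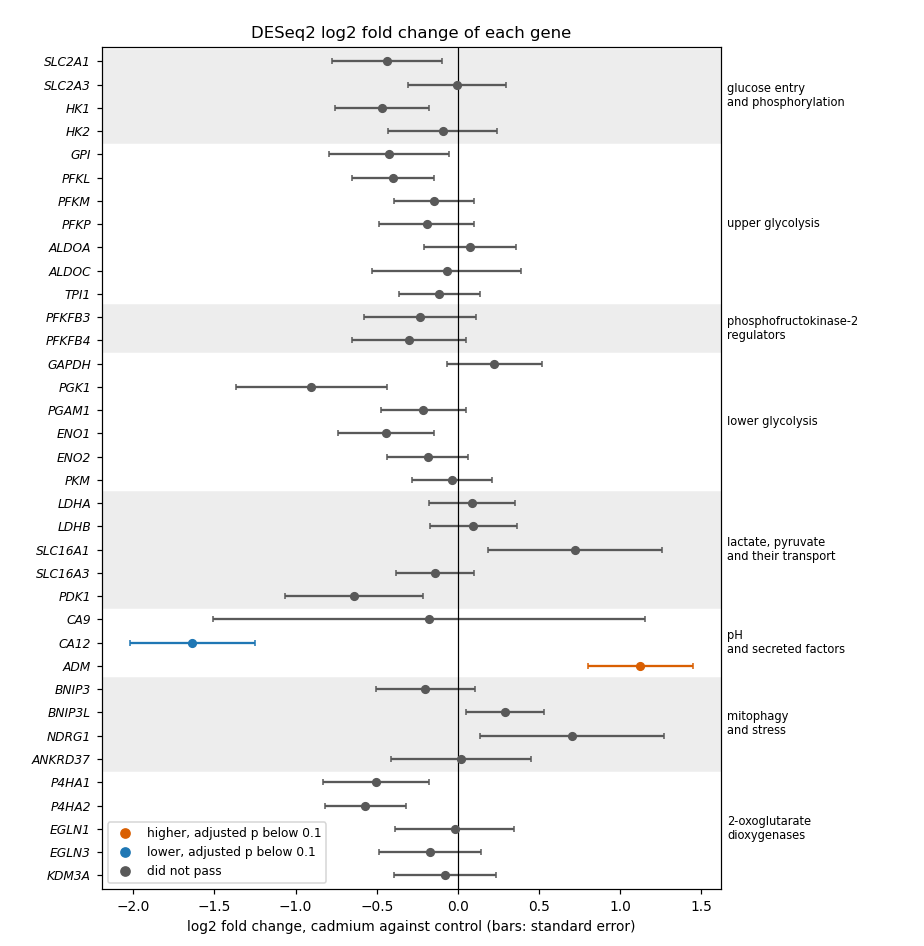
DESeq2 log2 fold change of cadmium against control cells for the 36 genes, grouped by role, with bars of 1 standard error from 2 libraries a group. ADM at 1.12 and CA12 at -1.64 are coloured as passing an adjusted p of 0.1, and the other genes lie between -0.90 and 0.72.

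ADM (ENSG00000148926, hg38 chr11:10305073-10307397, plus strand) encodes adrenomedullin, a secreted peptide that widens blood vessels and is a classic target of hypoxia-inducible factors. Its normalised read count was 1689 and 1104 in controls 2 and 3, against 3256 and 2830 in cadmium 1 and 2. Both cadmium libraries lay above both controls, and the gap between the groups was wider than the gap within either. The control mean was 1396 ± 414 (SD, n = 2) and the cadmium mean 3043 ± 302 (SD, n = 2), which is 2.18-fold. DESeq2 gave a log2 fold change of 1.12 ± 0.32 (SE) and an adjusted p of 0.0590. The 40 nearest expressed genes along the chromosome had a median log2 ratio of 0.18 between the same groups, so the difference at ADM was larger than that of its surroundings. The edgeR quasi-likelihood test gave an adjusted p of 0.620. Leaving out cadmium 1 or cadmium 2 also ended the call, with log2 fold changes of 1.01 and 1.22 and a DESeq2 adjusted p of 1.00 each.

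CA12 (ENSG00000074410, hg38 chr15:63321378-63381846, minus strand) encodes carbonic anhydrase XII, an enzyme of the cell surface that interconverts carbon dioxide and bicarbonate outside the cell. Its normalised read count was 4566 and 2413 in controls 2 and 3, against 1271 and 974 in cadmium 1 and 2. Both cadmium libraries lay below both controls, and the controls themselves differed 1.89-fold. The means were 3490 ± 1523 (SD, n = 2) and 1123 ± 210 (SD, n = 2), a ratio of 0.322. DESeq2 gave a log2 fold change of -1.64 ± 0.39 (SE) and an adjusted p of 0.00526. The 40 neighbouring genes had a median log2 ratio of -0.27. Here too edgeR gave an adjusted p of 0.620, and the DESeq2 call ended without cadmium 1, at -1.85 with an adjusted p of 0.559, and without cadmium 2, at -1.46 with an adjusted p of 1.00.

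The 250 bases before the start of both genes are shown because these are the 2 members that passed the test, and they let the hypoxia and metal motifs be read in place. The sequences are RefSeq promoter windows of GRCh38.p14, and each is written 5′ to 3′ on the strand of its gene. Capitals mark the cores searched for on both strands, ACGTG or GCGTG for the hypoxia response element and TGCACNC or TGCGCNC for the metal response element.

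ADM, chr11:10304823-10305072, plus strand: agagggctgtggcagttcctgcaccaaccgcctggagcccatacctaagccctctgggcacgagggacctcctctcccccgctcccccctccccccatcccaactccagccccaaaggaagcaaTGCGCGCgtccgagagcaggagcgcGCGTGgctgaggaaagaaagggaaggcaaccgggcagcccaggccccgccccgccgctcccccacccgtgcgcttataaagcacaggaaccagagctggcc

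CA12, chr15:63381847-63382096, minus strand: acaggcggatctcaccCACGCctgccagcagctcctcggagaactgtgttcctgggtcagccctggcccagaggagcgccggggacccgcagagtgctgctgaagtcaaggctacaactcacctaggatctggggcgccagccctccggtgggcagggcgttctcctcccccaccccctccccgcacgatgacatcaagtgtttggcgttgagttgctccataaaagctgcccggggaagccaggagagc

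In ADM, the gene that was higher, a metal core (TGCGCGC) lay 126 to 120 bases before the start and a hypoxia core (GCGTG) 101 to 97 bases before it. In CA12, the gene that was lower, the stretch held 1 hypoxia core on the opposite strand (CACGC), 234 to 230 bases before the start, and no metal core, but the 50 bases after the start, which are not shown, held another hypoxia core and 2 metal cores that overlap on opposite strands. Windows of 300 bases, from 250 before to 50 after the start, were matched for 32 of the 36 genes, and SLC2A3, SLC16A1, BNIP3L and NDRG1 were not matched. A hypoxia core was present in 23 of the 32 windows (71.9%), beside 48.4% of the windows of all 27305 genes that had one. LDHA and BNIP3 held 6 each, ALDOC 5 and PGK1 4. A metal core was present in 16 of the 32 (50%), beside 29.3% of all windows. The windows of the 32 genes were also richer in G and C, with a median of 69.2% against 58.3%, and the 2 kinds of core can share bases, since TGCACGC contains GCGTG on its other strand.

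**Figure D2:**
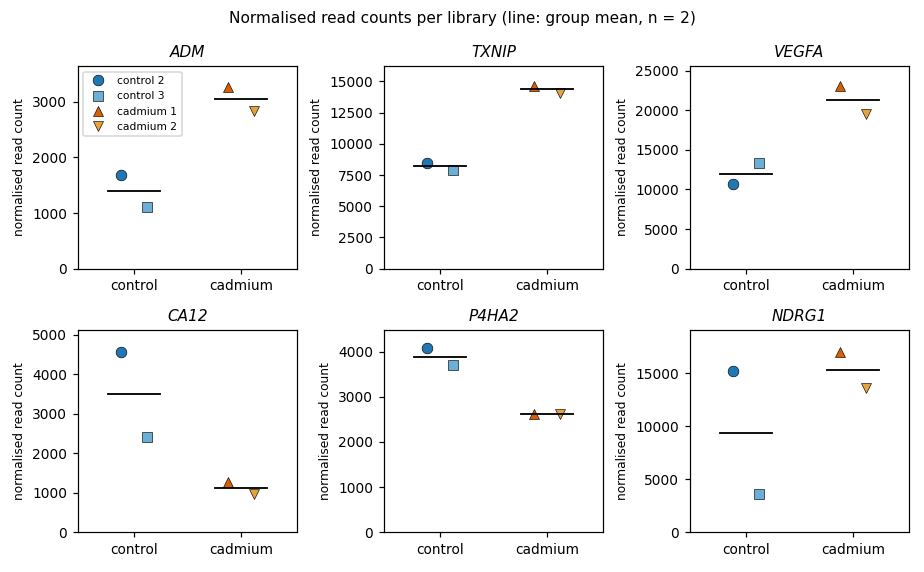
Normalised read counts of ADM, TXNIP, VEGFA, CA12, P4HA2 and NDRG1 in each library on linear axes from 0, with a line at each group mean (n = 2). The cadmium libraries lie above both controls for ADM, TXNIP and VEGFA and below both for CA12 and P4HA2, while for NDRG1 control 2 at 15199 lies among the cadmium libraries and control 3 at 3580 lies apart.

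Glucose entry is carried by the transporters SLC2A1 (GLUT1) and SLC2A3 (GLUT3), and the hexokinases HK1 and HK2 then trap glucose by phosphorylation. None of these 4 genes passed the test. SLC2A1 had a normalised read count of 36612 and 22616 in controls 2 and 3, against 19243 and 24533 in cadmium 1 and 2. The cadmium values thus lay on both sides of control 3, and control 2 was the highest. HK1 was at 23444 and 17308 in the controls and at 13427 and 16027 in the cadmium libraries, with both cadmium values below both controls, a log2 fold change of -0.47 ± 0.29 (SE) and a DESeq2 adjusted p of 0.874. SLC2A3 and HK2 overlapped between the groups, with log2 fold changes of -0.01 and -0.09. Per kilobase of exon, SLC2A1 made up 89.8% to 92.9% of the level of the 2 transporters in the 4 libraries, and HK1 made up 69.5% to 79.4% of the level of the 2 hexokinases.

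The upper part of the chain runs from glucose-6-phosphate isomerase (GPI) through the phosphofructokinases PFKL, PFKM and PFKP and the aldolases ALDOA and ALDOC to triosephosphate isomerase (TPI1). None of the 7 genes passed, and their log2 fold changes lay between -0.42 for GPI and 0.07 for ALDOA. GPI had 29649 normalised counts in control 2 and 15360 in control 3, with the cadmium libraries at 16099 and 17490. Control 2 alone was high, and the cadmium libraries were close to control 3. PFKL, the liver-type subunit, was at 10831 and 9344 in the controls and at 7883 and 7395 in the cadmium libraries, below both controls, with a log2 fold change of -0.40 ± 0.25 (SE) and a DESeq2 adjusted p of 0.887. PFKM, the muscle-type subunit, also lay below both controls, with 4977 and 5244 in cadmium against 5382 and 5915, a log2 fold change of -0.14. The platelet-type subunit PFKP had the highest level of the 3 per kilobase, at 59.9% to 67.0% of their sum in each library.

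ALDOA had 1639 to 2167 normalised counts, and 54.2% of its exon bases are shared with other annotated genes, whose shared reads the authors' counting dropped. A gene on the same strand (ENSG00000285043) held a further 172, 294, 281 and 293 reads in control 2, control 3, cadmium 1 and cadmium 2, and with them added the log2 ratio of the groups was 0.10. The level of ALDOA is therefore uncertain, and its share of the aldolase pair, 58.0% in control 2 and 77.4% in control 3, is uncertain for the same reason. ALDOC ranged from 363 in control 3 to 886 in control 2, with the cadmium libraries between them at 599 and 590. TPI1 was even across the libraries, from 36104 to 43274.

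PFKFB3 and PFKFB4 are bifunctional enzymes that make and remove the fructose bisphosphate that switches on phosphofructokinase, and both are well-known hypoxia targets. Their normalised counts in the cadmium libraries were 2887 and 2858 for PFKFB3 and 1453 and 1547 for PFKFB4. In both genes the cadmium pair lay between control 3, the lower control at 2479 and 1353, and control 2, the higher at 4270 and 2344. The log2 fold changes were -0.23 and -0.30, neither of which passed. The balance between the 2 enzymes was steady, with PFKFB3 at 64.5% to 66.5% of their summed level per kilobase.

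The lower part of glycolysis gives the most abundant transcripts of the set. GAPDH, the dehydrogenase of the chain, averaged 49946 normalised counts per kilobase in control and 58338 in cadmium cells, and ENO1, the main enolase, averaged 43453 and 31965. Per kilobase, the order of the 2 genes differed between the controls, with ENO1 above GAPDH in control 2 and below it in control 3. In both cadmium libraries GAPDH was the higher per kilobase. This order rests on the division by exon length, since in normalised counts alone ENO1 was above GAPDH in all 4 libraries. A gene on the other strand covers 17.6% of the exon bases of GAPDH, so its level is uncertain. PKM, pyruvate kinase, followed at 22047 and 21501 per kilobase, TPI1 at 15503 and 14325, and LDHA at 11923 and 12678. All values per kilobase divide by the annotated exon bases of a gene, so orders between genes and paralog shares rest on that annotation. ENO1, PKM, GAPDH, LDHA and PGK1 together held 70.1% to 72.3% of the reads of the 36 genes, and the 36 genes held 1.77%, 1.56%, 1.44% and 1.61% of all assigned reads in control 2, control 3, cadmium 1 and cadmium 2.

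**Figure D3:**
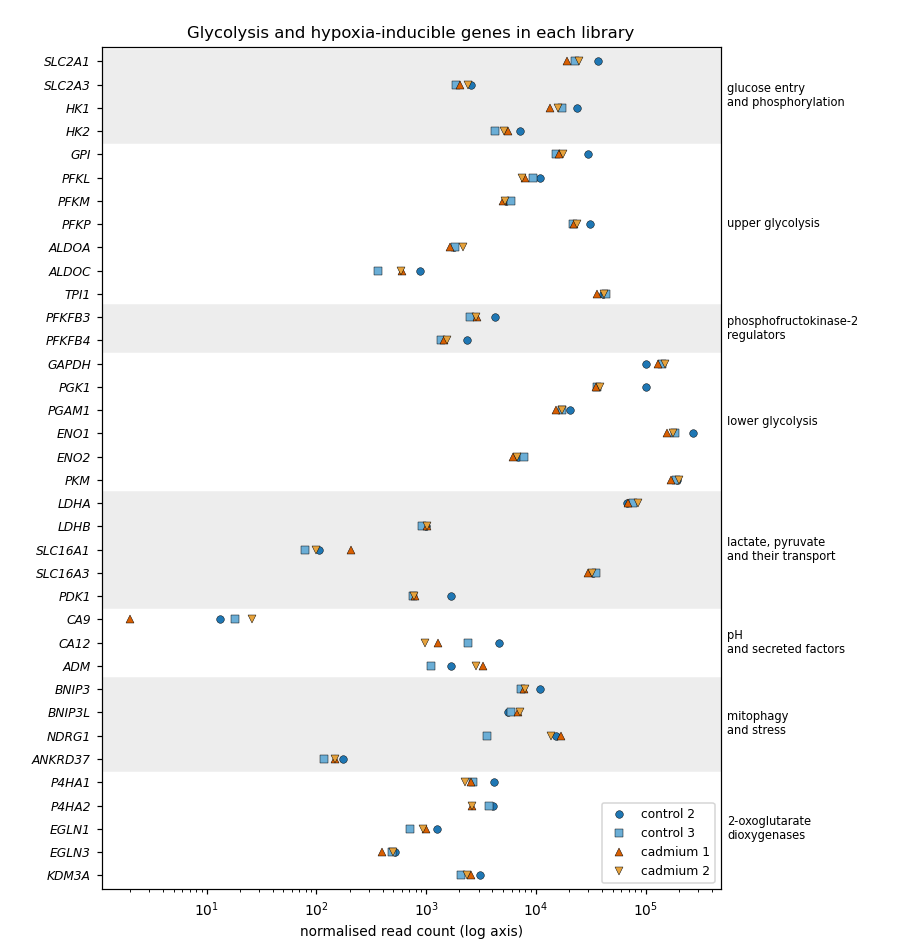
Normalised read counts of the 36 genes in each of the 4 libraries on a log axis, grouped by role. The levels run from 1.99 for CA9 in cadmium 1 to 266947 for ENO1 in control 2, and the marker of control 2 is the rightmost in 22 genes.

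ENO1 had 266947 and 186352 normalised counts in controls 2 and 3, against 155812 and 177652 in cadmium 1 and 2. Both cadmium libraries lay below both controls, but the difference between cadmium 2 and control 3 was smaller than that between the controls, and the log2 fold change of -0.44 ± 0.30 (SE) had a DESeq2 adjusted p of 0.908. ENO2, the neuronal enolase, had the same order of groups at far lower levels, 6847 and 7788 against 6146 and 6711, a log2 fold change of -0.19. GAPDH went the other way between the controls, with 99834 in control 2 and 139505 in control 3, and the cadmium libraries were at 128411 and 151144. PKM ranged from 169221 to 199226, with both controls inside the cadmium range and a log2 fold change of -0.04 with a 95% interval of -0.52 to 0.45. PGAM1, the mutase of the chain, overlapped between groups at -0.21.

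PGK1, phosphoglycerate kinase (ENSG00000102144), had the largest fitted difference among the glycolytic enzymes, and it turned on control 2. Its normalised read count was 101211 and 36112 in controls 2 and 3, against 34984 and 38476 in cadmium 1 and 2. Control 2 stood 2.80-fold above control 3, and the cadmium libraries lay on either side of control 3. The log2 fold change was -0.90 with a 95% interval of -1.81 to 0.01 and a DESeq2 adjusted p of 0.721, and it was 0.02 without control 2 and -1.47 without control 3, where it passed. The 40 neighbouring genes had a median log2 ratio of control 3 to control 2 of 0.05, against -1.49 for PGK1 itself.

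None of the genes of lactate dehydrogenase and lactate transport passed the test. LDHA, the subunit that favours lactate production, had 67993, 75995, 68487 and 84613 normalised counts in control 2, control 3, cadmium 1 and cadmium 2. The groups overlapped, and the log2 fold change of 0.09 had a 95% interval of -0.43 to 0.61. LDHB was at 997 and 918 in the controls and 1026 and 1020 in the cadmium libraries, a narrow separation with a log2 fold change of 0.10, and its pseudogenes held 14.0% to 19.2% as many reads as the gene itself and a gene on the same strand covers 33.4% of its exon bases, so its level and share are uncertain. LDHA made up 97.1% to 97.6% of the pair per kilobase. SLC16A3 (MCT4), the lactate exporter of glycolytic cells, made up 99.0% to 99.7% of the 2 transporters, with 33161 and 35099 normalised counts in control and 29816 and 32084 in cadmium libraries, a log2 fold change of -0.14. SLC16A1 (MCT1), which carries lactate both ways, was scarce at 106 and 78.7 in control and 205 and 99.7 in cadmium libraries, and its log2 fold change of 0.72 ± 0.53 (SE) rested mostly on cadmium 1.

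PDK1, the kinase that holds pyruvate back from the mitochondrion by switching off pyruvate dehydrogenase, had 1683 normalised counts in control 2 and 752 in control 3. The cadmium libraries were at 789 and 775, close to control 3. Its log2 fold change was -0.64 with a 95% interval of -1.47 to 0.19 and a DESeq2 adjusted p of 0.905, and it was 0.06 without control 2.

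CA9, carbonic anhydrase IX and among the best-known hypoxia markers, was close to the detection limit. It had 14, 17, 2 and 26 reads in control 2, control 3, cadmium 1 and cadmium 2. If each read were independent, a count of 0 would itself allow up to 3. The 2 mates of a pair were counted separately, so this limit is too low. The cadmium libraries lay on opposite sides of the controls, the 95% interval of the log2 fold change ran from -2.78 to 2.43, and no difference was detectable at this depth. ARHGEF39 on the other strand covers 35.7% of its exon bases. Per kilobase CA12 made up 89.7% to 99.3% of the 2 carbonic anhydrases in every library.

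The mitophagy receptors BNIP3 and BNIP3L lie in the outer mitochondrial membrane and mark mitochondria for removal. BNIP3 had 10788 and 7226 normalised counts in the controls and 7707 and 7970 in the cadmium libraries, which lay between them. BNIP3L was at 5605 and 5869 in control and 6853 and 7196 in cadmium libraries, above both controls by a log2 fold change of 0.29 ± 0.24 (SE) with a DESeq2 adjusted p of 0.988. BNIP3 made up 66.3% of the pair per kilobase in control 2, 55.8% in control 3, and 53.5% and 53.2% in the cadmium libraries, so that the share in the cadmium libraries lay below both controls. With 2 libraries against 2, an exact permutation test of such a share cannot give a p below 0.333.

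NDRG1, a gene of stress and differentiation that hypoxia and iron loss are known to raise, differed more between the 2 controls than any other of the 36 genes. Its normalised read count was 15199 and 3580 in controls 2 and 3, against 16998 and 13574 in cadmium 1 and 2. Control 3 was the library that stood apart, 4.25-fold below control 2, and control 2 lay between the cadmium libraries. The log2 fold change was 0.70 ± 0.57 (SE) with a DESeq2 adjusted p of 0.983. It was 2.09 without control 2 and -0.0034 without control 3, so which control is used decides it. The neighbouring genes had a median log2 ratio of control 3 to control 2 of -0.04, against -2.09 for NDRG1. ANKRD37, a small hypoxia-induced ankyrin protein, had 116 to 173 normalised counts, and UFSP2 on the other strand covers 40.3% of its exon bases.

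The remaining genes encode enzymes that use oxygen and 2-oxoglutarate. P4HA1 and P4HA2 are the catalytic subunits of collagen prolyl hydroxylase, and both had lower values in the 2 cadmium libraries than in either control. P4HA2 (ENSG00000072682) had 4083 and 3708 normalised counts in control and 2619 and 2624 in cadmium libraries. The separation was clear beside the spread within groups, and the fitted log2 fold change was -0.57 ± 0.25 (SE), but with an unadjusted p of 0.0216 the DESeq2 adjusted p was 0.510. It passed on leaving out either control, at -0.50 without control 2 and -0.65 without control 3, where the spread came from the close cadmium pair alone. P4HA1 was at 4158 and 2677 in control and at 2584 and 2233 in cadmium libraries, a log2 fold change of -0.50 ± 0.32 (SE) with an adjusted p of 0.900.

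EGLN1 and EGLN3, the oxygen sensors that hydroxylate hypoxia-inducible factors and are themselves induced by them, overlapped between the groups. EGLN1 was at 1245 and 706 in control and 992 and 934 in cadmium libraries. Another annotated gene on the same strand (ENSG00000287856) covers 55.8% of its exon bases, so the level of EGLN1 is uncertain. That gene held 0, 0, 2 and 2 reads in control 2, control 3, cadmium 1 and cadmium 2. EGLN3 was at 517 and 484 against 393 and 497. KDM3A, a histone demethylase induced in hypoxia, was at 3104 and 2053 against 2531 and 2349. Their log2 fold changes were -0.02, -0.17 and -0.08.

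At an unadjusted p below 0.05, DESeq2 gave 3 of the 36 genes, ADM, CA12 and P4HA2, beside 6.92% of all genes tested. PFKL joined them with edgeR and with limma-voom, which gave 4 each, beside 7.83% and 7.4% of all genes. The cadmium pair lay clear of the control range, on either side, in 12 of the 36 genes (33.3%), beside 40.3% of all genes. In LDHB, ADM and BNIP3L they lay above both controls, where 20.3% of all genes did. In HK1, PFKL, PFKM, ENO1, ENO2, SLC16A3, CA12, P4HA1 and P4HA2 they lay below both, where 19.9% of all genes did. The share outside the control range was thus no higher among these genes than over the whole table.

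A wider difference ran between the 2 control libraries. Its size was near that over the whole table, with a median absolute log2 ratio of 0.50 in the 36 genes and 0.49 in all genes tested. Control 2 was above control 3 in 27 of the 36 genes (75%), beside 50.6% of all genes tested, and it was the highest of the 4 libraries in 22 (61.1%), beside 36%. Among tested genes with a mean normalised count of at least 100, as most of the 36 have, control 2 was the highest in 43.0%. The median log2 ratio of control 3 to control 2 was -0.48 over the 36 genes and -0.01 over all genes. The cadmium pair lay strictly between the controls in 12 of the 36 genes (33.3%), beside 30.8% of all genes. Against control 3, the medians of the 36 genes were -0.05 in cadmium 1 and 0.14 in cadmium 2, and against control 2 they were -0.38 and -0.31. The set therefore lay lower in cadmium cells when control 2 was the reference and near 0 when control 3 was. ALDOC, PGK1, PDK1 and NDRG1 differed more than 2-fold between the controls (11.1%), as did 23.6% of all genes and 14.2% of those at or above 100, and SLC16A1 and CA9 did so between the cadmium libraries.

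**Figure D4:**
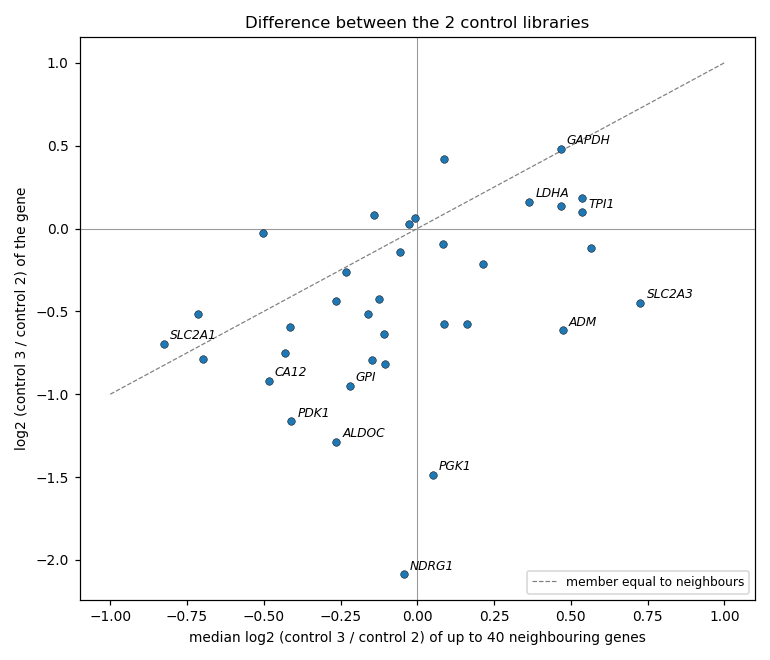
Log2 ratio of control 3 to control 2 for each of the 36 genes (vertical axis) against the median of the same ratio over its nearest expressed genes on the chromosome, 40 for 32 of the genes and 27 to 35 for PFKP, ANKRD37, BNIP3 and SLC16A3, which lie near a chromosome end (horizontal axis), with a dashed line where both are equal. GAPDH at 0.48 lies at the level of its neighbours, 0.47, while NDRG1 at -2.09 and PGK1 at -1.49 lie far below neighbours near 0.

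For part of the set, the difference between the controls was shared with the surrounding genes. On chromosome 12, the neighbours of GAPDH had a median log2 ratio of control 3 to control 2 of 0.47, and GAPDH itself was at 0.48. The other members on that chromosome lay below their neighbours. TPI1 at 0.10 and ENO2 at 0.19 had neighbours at 0.54, PFKM at 0.14 had them at 0.47, and LDHB at -0.12 at 0.57. The neighbours of SLC2A1 were at -0.82 and SLC2A1 at -0.69, and the 27 neighbours of PFKP at -0.71 and PFKP at -0.51. In contrast, ALDOC at -1.29, PDK1 at -1.16 and GPI at -0.95 lay below neighbours at -0.26, -0.41 and -0.22. SLC2A3 at -0.45 and ADM at -0.61 had the sign opposite to their neighbours, at 0.73 and 0.47. The copy number of these regions was not tested.

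**Figure D5:**
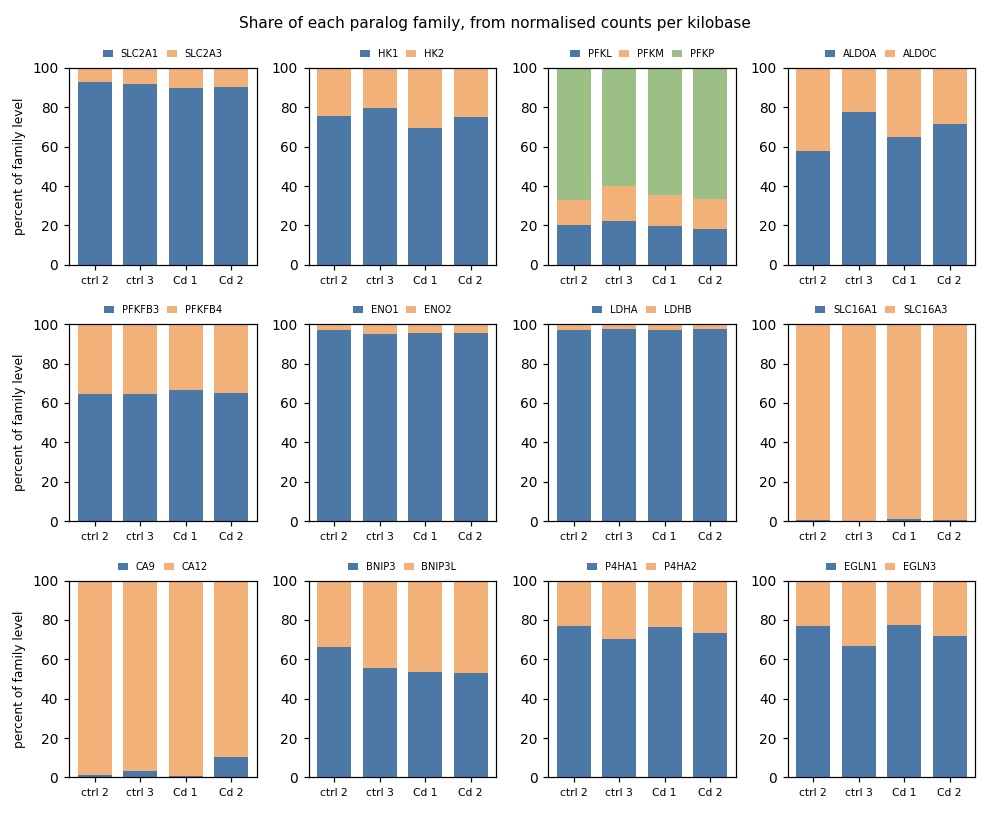
Share of each paralog in the summed level of its family in percent, from normalised read counts per kilobase of annotated exon, with 1 bar for each library. SLC2A1, ENO1, LDHA, SLC16A3 and CA12 hold most of their families in all 4 libraries, and the share of BNIP3 is 66.3% in control 2 and 53.2% to 55.8% in the other libraries.

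The regulators of the hypoxia response are mostly controlled at the protein level, which these data do not measure. Of 8 regulator genes 7 could be tested and none passed, beside 1.14% of all genes tested. At an unadjusted p below 0.05 there was 1 with DESeq2 (ARNT2), beside 6.92% of all genes, and 0 with edgeR and limma-voom. HIF1A had 22493 and 34450 normalised counts in control and 27178 and 29175 in cadmium libraries, with the cadmium pair between the controls and a log2 fold change of -0.01. EPAS1 (HIF-2 alpha) was at 5459 and 6301 against 4951 and 4955, and ARNT at 2589 and 2893 against 2386 and 2554. In both, the cadmium libraries lay below both controls by small differences, -0.25 and -0.15. VHL, EGLN2 and HIF1AN, which restrain the factors, had log2 fold changes of 0.16, 0.34 and 0.11. ARNT2, a relative of ARNT, was at 6295 in control 2 and 1554 to 1715 in the other libraries, with a log2 fold change of -1.33 and an adjusted p of 0.390, and it was -0.11 without control 2 and -2.0 without control 3. HIF3A reached at most 1.99 normalised counts and was not tested.

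Of a further list of 45 hypoxia-inducible genes, 44 were tested and none passed in DESeq2, beside 1.14% of all genes tested. At an unadjusted p below 0.05 there were 4 with DESeq2, 8 with edgeR and 8 with limma-voom. The shares over all genes were 6.92%, 7.83% and 7.4% in the same order. Their median log2 fold change was -0.0061. VEGFA, the main growth factor of blood vessels, came closest, with 10700 and 13288 normalised counts in control and 23024 and 19543 in cadmium libraries. Both cadmium libraries were above both controls, as for ADM, and the 1.77-fold difference had a log2 fold change of 0.83 ± 0.27 (SE) and a DESeq2 adjusted p of 0.154. It passed at 0.0940 when only genes with at least 10 counts in 2 libraries were kept, and on leaving out either control, at 0.68 without control 2 and 0.98 without control 3. The other genes named from this list had negative log2 fold changes. AK4 (adenylate kinase of mitochondria) was at -1.11, PGM1 (phosphoglucomutase) at -0.56, ZNF395 at -0.51 and GYS1 (muscle glycogen synthase) at -0.50, with DESeq2 adjusted p from 0.489 to 0.754. Over the 44 tested genes, 21 log2 fold changes were above 0 and 23 below. For AK4 control 2 alone was high, with 7737 against 2635, 2460 and 2329 in control 3 and the cadmium libraries.

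Of a list of 48 other genes of glucose handling, 36 were tested and 1 passed, beside 1.14% of all genes tested. TXNIP, which restrains glucose uptake and binds thioredoxin, had 8475 and 7941 normalised counts in control and 14670 and 14055 in cadmium libraries. The replicates were close within each group and far apart between them, with means of 8208 ± 378 (SD, n = 2) and 14363 ± 434 (SD, n = 2), which is 1.75-fold. TXNIP rose by a log2 fold change of 0.81 ± 0.24 (SE) with a DESeq2 adjusted p of 0.0804, and edgeR gave 0.620. The DESeq2 call ended without cadmium 1, at 0.77, and without cadmium 2, at 0.83, with an adjusted p of 1.00 each. SLC2A6, a lesser glucose transporter, was at -0.88, BPGM, which makes the bisphosphoglycerate of red cells, at -0.53, PDK4, a second pyruvate dehydrogenase kinase, at -0.89, ADPGK, a glucokinase that uses ADP, at -0.50, and GPD2, the mitochondrial glycerol phosphate dehydrogenase, at -0.47, and none of these passed.

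The cadmium label was checked on genes of metal exposure. MT2A and MT1X, metallothioneins that bind cadmium, and HMOX1, heme oxygenase, all rose, by log2 fold changes of 2.06, 2.87 and 2.48. The differences of ADM and TXNIP, the 2 genes described above that rose, were smaller than any of these.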

How the data were processed

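RNA was sequenced from 2 control and 2 cadmium-resistant MDA-MB-231 libraries. Per the file header and the study's methods, the authors aligned paired-end reads to hg38 with HISAT2 and counted them per gene with featureCounts 2.0.1 at default settings, which ignore strand, drop reads with several alignments or overlapping several genes, and count the 2 mates separately. The deposited values are these raw counts. The limit given for a count of 0 covers only the counting error of independent reads. The 95% intervals of log2 fold changes are 1.96 DESeq2 standard errors on each side and include the spread fitted between libraries. The numbers in the control columns (2 and 3) differ from those in the labels, so columns were mapped to the group only.

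Counts were tested with DESeq2 1.42.0 in R 4.3.3 (2 groups, median-of-ratios size factors, two-sided Wald test, Benjamini-Hochberg adjustment after independent filtering at a mean count of 7.69, threshold 0.1). Alternatives were edgeR 4.0.16 quasi-likelihood, limma-voom 3.58.1, other scalings and filters, and leaving out each library. The fit covered all genes. It was tested on simulated data. Neighbour ratios used up to 20 genes on each side with a mean count of at least 100 and a pseudocount of 1, and figures Python 3.11.15. Promoter windows came from RefSeq.

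The members and lists were chosen with earlier results of these data known. Named genes are the 36 members, 8 regulators, and, of the 2 other lists, every gene that passed plus those with the lowest unadjusted p up to 6 a list at a mean count of at least 50, with MT2A, MT1X and HMOX1 as the check. Of the genes this rule names, 1 is not reported here.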

Additional observations from a re-analysis of the deposited data

How the results depend on the processing

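Calls rested on few libraries and on DESeq2. Of the 36 genes 2 passed. Only CA12 also did so at a DESeq2 adjusted p below 0.05, and the share of all genes passing there is not given here. The count was 0 with edgeR and with limma-voom, which passed 0 genes of the whole table against 225 with DESeq2. At an unadjusted p below 0.05, edgeR passed 1506 of 19241 genes and limma-voom 1423. Leaving out 1 library at a time gave 0 to 21 of the 36 genes and 14 to 6189 of all genes (17 without cadmium 1, 14 without cadmium 2, 2311 without control 2 and 6189 without control 3), with 0 of the 36 without cadmium 1 or cadmium 2, 5 without control 2 (ADM, ALDOC, CA12, NDRG1 and P4HA2) and 21 without control 3. In these fits the spread comes from the group that keeps 2 libraries, and the lone library is assumed to vary like it. Of the pathway lists, 1 gene passed (TXNIP), 2 with a minimum of 10 counts in 2 libraries (TXNIP and VEGFA), 0 at 0.05, with edgeR, with limma-voom and without independent filtering, and 0 to 40 on leaving out a library. With upper-quartile scaling, 152 genes of the table passed upward and 88 downward, against 119 and 106.

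Values near 0 changed sign with the scaling. SLC2A3 was 0.0012 with the minimum of 10 counts, 0.017 with a length trend, 0.0050 with limma-voom and 0.055 with upper-quartile scaling. EGLN1 was 0.0075, 0.028 and 0.044 and HIF1A 0.0090, 0.021 and 0.043 with the last 3 of these settings in turn. ALDOC was 0.052 with limma-voom and PKM 0.023 with upper-quartile scaling. Of the 36 genes, 18 kept their sign in every setting. On leaving out a library the log2 fold change ran from -0.22 to 0.23 in SLC2A3, -0.43 to 0.33 in HK2, -0.83 to 0.13 in GPI, -0.44 to 0.085 in PFKP, -0.14 to 0.26 in ALDOA, -0.59 to 0.71 in ALDOC, -0.58 to 0.21 in PFKFB3, -0.66 to 0.15 in PFKFB4, -1.47 to 0.022 in PGK1 and -0.16 to 0.071 in PKM. It ran from -0.075 to 0.23 in LDHA, -1.12 to 0.055 in PDK1, -2.98 to 0.71 in CA9, -0.47 to 0.12 in BNIP3, -0.0034 to 2.09 in NDRG1, -0.25 to 0.34 in ANKRD37, -0.38 to 0.45 in EGLN1, -0.36 to 0.25 in KDM3A, -0.29 to 0.31 in HIF1A and -1.49 to 0.12 in PDK4. No paired analysis was possible because columns of the 2 groups share fewer than 2 replicate numbers, with 2 and 3 in the controls, which the labels number otherwise.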

Other observations

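Among the hypoxia-inducible genes of the further list, 4 outside the naming rule are given here after their values were seen, because their 2 controls differed far more than the groups did. STC1, which encodes the secreted hormone stanniocalcin, had 5101 and 691 normalised counts in controls 2 and 3, against 2546 and 3217 in cadmium 1 and 2. ANGPTL4, a secreted inhibitor of lipoprotein lipase, had the reverse order, with 351 and 3131 in controls 2 and 3, against 1323 and 1549 in cadmium 1 and 2. TFRC, the transferrin receptor, had 28559, 9790, 22992 and 22830 normalised counts in the same order of libraries. CXCR4, a chemokine receptor, had 932 and 0 reads in controls 2 and 3, against 108 and 132 in cadmium 1 and 2.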
